A study of Mus musculus with 59 samples.

Results

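The SSEA1+ control cells of a mouse reprogramming experiment were compared with the SSEA1- Thy1- control cells, using the deposited list of CTCF peaks of each population. A peak of the SSEA1+ list with no overlap of at least 1 bp in the SSEA1- Thy1- list was counted as gained, and a peak of the SSEA1- Thy1- list with no such overlap in the SSEA1+ list as lost. These rules gave 5580 gained sites, 10.7% of the SSEA1+ peaks, and 4499 lost sites, 8.84% of the SSEA1- Thy1- peaks, together 10079 of the 102868 peaks in both lists. All 16 lists of the series held 798096 peaks. The samples were grouped by their titles, and the members were chosen by the lists alone.

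The study followed CTCF by chromatin immunoprecipitation and sequencing through the reprogramming of OG2-MEFs, mouse embryonic fibroblasts with an Oct4-GFP reporter. For the sorted populations, Oct4, Sox2, Klf4 and c-Myc (OSKM) were carried by a TetOn lentivirus and switched on with doxycycline, together with rtTA and in medium with vitamin C. SSEA1+ cells and SSEA1- Thy1- cells were each sorted on day 6 and day 9 and carried a control shRNA against luciferase. The labels tie the day 6 and day 9 samples of a population to 1 list, so each population is 1 list with no replicate, and both populations share the fibroblasts, OSKM and the control shRNA. Another pair of lists came from SSEA1+ and SSEA1- Thy1- cells of the same days with an shRNA against Ctcf. Further lists used here for reference came from day 0 cells, from Thy1+ cells of days 3 and 9 and from Oct4-GFP+ cells of day 12, each with Ctcf shRNA or control shRNA. Others came from day 10 cells with OSKM, for which the labels name no sort, with OSKM and added Ctcf, or with both and an shRNA against Smarca5. The last came from embryonic stem cells (ESCs) of the E14 line, wild type or Smarca5 knockout for CTCF, and with an overexpressed tagged SMARCA5 for the SMARCA5 list. For the day 3 Thy1+ samples, the labels contradict each other on which one carried Ctcf shRNA, so the main Thy1+ comparisons were read from both Thy1+ lists, and values given for the Thy1+ control list alone rest on the sample titles. A peak list holds no expression, so the sorted populations could not be checked against their markers.

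CTCF is a zinc finger protein that binds a long DNA motif, and it stops the loop-extruding cohesin complex, which makes many of its sites the anchors of chromatin loops and the borders of topological domains. During the reprogramming of fibroblasts, Thy1 is lost from the cell surface, the carbohydrate SSEA1 appears later, and the endogenous Oct4 locus is switched on last. SSEA1+ cells are the population richest in cells that go on to form pluripotent colonies.

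Sequences are shown for sites at gene starts, where the deposited intervals meet the promoter sequences of RefSeq (GRCm38.p6, the build of the files). Each line gives the 250 bases before a gene start, 5′ to 3′ on the strand of the gene, with capitals marking a match to a core of the CTCF motif on either strand. The core is 12 bases long and reads CCA, 2 bases of any kind, AG, 2 bases of any kind and GGC. The gained sites are the first along the genome to carry a match and to lie at a gene start, except for 2 that are named after them. The lost sites are those at the start of a gene in the gene lists described further on.
Gstm6, gained, chr3:107943735-107943984, minus strand: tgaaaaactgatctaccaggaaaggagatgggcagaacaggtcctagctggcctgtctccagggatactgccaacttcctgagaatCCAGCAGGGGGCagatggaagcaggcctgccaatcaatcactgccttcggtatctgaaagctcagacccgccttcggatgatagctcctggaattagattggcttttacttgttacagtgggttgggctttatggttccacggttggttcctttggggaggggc
Gm40634, gained, chr10:43743057-43743306, minus strand: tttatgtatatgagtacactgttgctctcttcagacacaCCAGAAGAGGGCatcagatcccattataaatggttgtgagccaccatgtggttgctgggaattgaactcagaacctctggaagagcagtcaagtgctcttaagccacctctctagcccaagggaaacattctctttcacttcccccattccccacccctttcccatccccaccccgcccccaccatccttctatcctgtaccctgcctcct
Gm32749, gained, chr10:94233135-94233384, minus strand: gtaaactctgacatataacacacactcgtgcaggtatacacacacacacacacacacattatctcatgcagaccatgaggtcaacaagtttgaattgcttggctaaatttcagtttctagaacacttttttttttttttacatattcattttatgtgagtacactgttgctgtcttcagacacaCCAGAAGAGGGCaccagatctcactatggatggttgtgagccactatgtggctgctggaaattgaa
Mfsd6l, gained, chr11:68555936-68556185, plus strand: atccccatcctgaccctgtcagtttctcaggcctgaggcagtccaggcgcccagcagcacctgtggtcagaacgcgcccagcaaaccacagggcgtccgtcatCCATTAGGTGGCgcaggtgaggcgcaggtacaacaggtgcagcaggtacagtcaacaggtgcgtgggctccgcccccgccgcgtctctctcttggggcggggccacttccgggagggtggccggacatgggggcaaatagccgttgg
Cdkn2a, lost, chr4:89294620-89294869, minus strand: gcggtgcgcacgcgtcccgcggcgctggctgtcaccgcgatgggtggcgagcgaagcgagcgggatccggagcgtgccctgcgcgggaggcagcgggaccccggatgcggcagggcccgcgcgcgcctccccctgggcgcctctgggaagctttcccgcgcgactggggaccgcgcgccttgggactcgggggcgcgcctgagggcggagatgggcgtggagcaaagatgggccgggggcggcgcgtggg
Krt8, lost, chr15:102004343-102004592, minus strand: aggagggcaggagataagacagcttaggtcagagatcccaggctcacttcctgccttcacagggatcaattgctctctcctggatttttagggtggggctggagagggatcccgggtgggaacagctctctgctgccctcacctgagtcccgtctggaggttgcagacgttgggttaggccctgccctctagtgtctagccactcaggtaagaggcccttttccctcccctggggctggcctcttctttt
The motif of Gstm6, a gene of the glutathione transferase family, was centred 7 bp from the centre of the gained site. The offset was 10 bp at Mfsd6l, 11 bp at Gm40634 and 32 bp at Gm32749. At Gm40634 and Gm32749 the windows shared an identical run of 25 bases that includes the motif. The other gained sites were at LOC108168693 on chromosome 4, with the motif 17 bp from the site centre, and at Gm42369 on chromosome 7, with the motif 215 bp away and so outside the peak. The windows of Cdkn2a, which encodes the cell cycle inhibitors p16Ink4a and p19Arf, and of Krt8, a keratin of simple epithelia, held no match.

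The SSEA1+ list was slightly longer than the SSEA1- Thy1- list, and about 1 peak in 10 differed between them. It held 51978 peaks, against 50890 in the SSEA1- Thy1- list, a difference of 1088 or 2.14%. Of the SSEA1+ peaks, 10.7% were gained (95% Wilson interval 10.5 to 11.0), and of the SSEA1- Thy1- peaks, 8.84% were lost (8.60 to 9.09). The remaining 46398 SSEA1+ peaks, 89.3%, were shared, and 46385 of them had the same coordinates in the SSEA1- Thy1- list. Gained sites outnumbered lost sites on 21 of 21 chromosomes, which mainly restates the longer SSEA1+ list, because nearly all shared peaks had equal coordinates. These intervals cover counting error only, and a difference between 2 lists has no replicate check. A peak is present or absent in a list, so binding in fewer cells and weaker binding per cell cannot be told apart.

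The sites that differed were also less widespread in the other lists. Among the 13 other CTCF lists, a gained site was found in a median of 4 and a lost site in a median of 5, while a shared site was found in a median of 12. No other CTCF list held 241 gained sites (4.32%), 185 lost sites (4.11%) and 51 shared sites (0.110%). Most of both classes were ESC sites, though less often than shared sites. The wild-type ESC list, the second longest with 83173 peaks, held 81.6% of gained sites and 81.2% of lost sites, a difference of 0.44 percentage points (95% Newcombe interval −1.08 to 1.97), and 95.4% of shared sites.

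Gained and lost sites differed in where else they were found along reprogramming. The day 12 Oct4-GFP+ control list held 49.1% of gained sites (47.7 to 50.4) and 41.0% of lost sites (39.5 to 42.4), a difference of 8.09 points (6.14 to 10.0). The Thy1+ control list held 35.5% of gained sites and 53.3% of lost sites, a difference of −17.8 points (−19.8 to −15.9). In the Thy1+ list with Ctcf shRNA the shares were 23.0% of gained and 36.1% of lost sites, so the order was the same under either reading of the day 3 labels. The day 0 control list held 4.46% of gained sites and 8.96% of lost sites. Shared sites were present far more often in each of these lists, in 88.8% at day 12, 90.0% in Thy1+ cells and 59.0% at day 0.

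**Figure D1:**
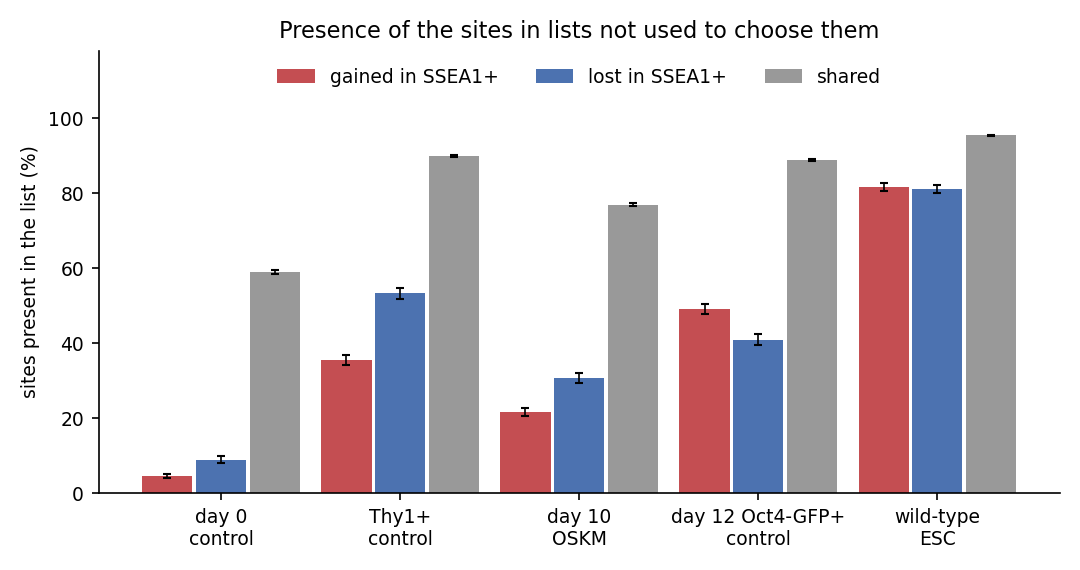
Share of the gained, lost and shared sites (percent, bars, with 95% Wilson intervals) found in each of 5 lists that were not used to choose them. Lost sites stand above gained sites in the day 0, Thy1+ and day 10 lists, gained sites stand above lost sites in the day 12 list (49.1% and 41.0%), and the classes lie within 0.44 points of each other in the wild-type ESC list.

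Day 10 OSKM cells gave the same order as Thy1+ cells. Their list held 21.5% of gained sites and 30.7% of lost sites, a difference of −9.15 points (−10.9 to −7.43). With added Ctcf the shares at day 10 were 32.8% and 44.0%, again lower for gained sites. The ESC list of SMARCA5, the ATPase of ISWI chromatin remodellers that helps CTCF to bind, held 31.7% of gained sites, 35.6% of lost sites and 54.5% of shared sites.

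Sites absent from the control lists of day 0 and Thy1+ cells and present in those of day 12 cells and wild-type ESCs made up 1444 of the gained sites (25.9%). Among lost sites 687 had that pattern (15.3%), and among shared sites 5.70% did. The reverse pattern, in the day 0 or Thy1+ list and in neither the day 12 nor the ESC list, was held by 206 gained sites (3.69%) and 308 lost sites (6.85%). So the larger part of each class had neither pattern: 34.1% of gained sites and 28.5% of lost sites were in neither the Thy1+ nor the day 12 control list, and 18.6% of gained and 22.8% of lost sites were in both. Those 22.8% were 1026 lost sites that the Thy1+, SSEA1- Thy1- and day 12 control lists held and the SSEA1+ control list lacked. For the lists of sorted cells, a site found in another list nearly always had the same coordinates there (100% of gained sites in the Thy1+ and day 12 control lists), while in the wild-type ESC list 12.7% of the gained sites found had the same start.

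The same step was read in cells with Ctcf shRNA, from samples that the control comparison did not use. There the SSEA1+ list held 44622 peaks and the SSEA1- Thy1- list 44283. Of these SSEA1+ peaks, 4720 (10.6%) were gained, and of the SSEA1- Thy1- peaks, 4386 (9.9%) were lost. Few of the sites were those of the control cells. Of the 5580 sites gained in control cells, 821 (14.7%) were gained again with Ctcf shRNA, 655 (11.7%) were lost, 663 (11.9%) were in both lists and 3441 (61.7%) were in neither. Of the 4499 sites lost in control cells, 599 (13.3%) were lost again, 462 (10.3%) were gained, 388 (8.62%) were in both lists and 3050 (67.8%) were in neither. The sites gained with both shRNAs were 1.58% of the control SSEA1+ peaks, and those lost with both were 1.18% of the control SSEA1- Thy1- peaks.

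**Figure D2:**
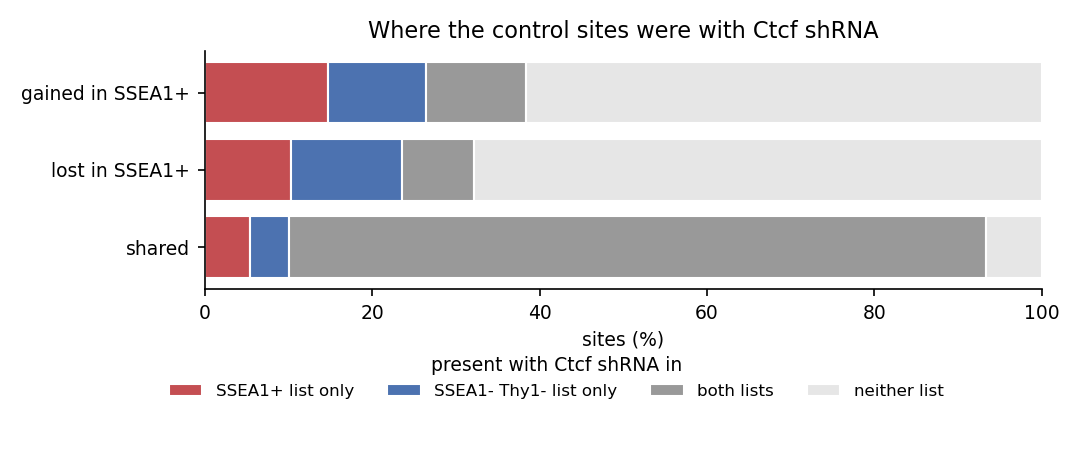
Share of the sites (percent, stacked) that were found with Ctcf shRNA in the SSEA1+ list only, the SSEA1- Thy1- list only, both lists or neither, for sites gained, lost and shared in control cells. Most gained and lost sites, 61.7% and 67.8%, fall in the part found in neither list, and the part that changed the same way (14.7% and 13.3%) is little wider than the part that changed the other way (11.7% and 10.3%).

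A site that changed with both shRNAs took the same direction only slightly more often than the opposite one. Of the 1476 gained sites that changed with Ctcf shRNA, 55.6% were gained again (53.1 to 58.1), and of the 1061 such lost sites, 43.5% were gained (40.6 to 46.5), a difference of 12.1 points (8.14 to 16.0). Among shared sites that changed with Ctcf shRNA, 53.9% were gained, 1.72 points below the gained class (−1.19 to 4.62), an interval that includes 0. The sites with the same direction in both comparisons showed the order across populations more widely apart. The day 12 control list held 59.6% of sites gained with both shRNAs and 44.1% of sites lost with both, and the Thy1+ control list held 37.4% and 64.1%. Sites with opposite directions did not keep that order at day 12, where 49.9% of those gained in control cells and 58.0% of those lost in control cells were listed. Taken alone, the Ctcf shRNA comparison gave 60.2% of its gained and 52.3% of its lost sites in the day 12 control list, and 50.7% and 60.9% in the Thy1+ control list. Its difference in the Thy1+ control list, −10.2 points, lay outside the interval of the control comparison (−19.8 to −15.9). So did its differences in the day 0 list with Ctcf shRNA, in all day 10 lists and in all ESC lists. The day 10 OSKM list held 33.5% of its gained and 32.3% of its lost sites, a difference of 1.17 points with an interval from −0.76 to 3.10, and the SMARCA5 list held 35.9% and 32.7%, a difference of 3.17 points (1.22 to 5.12). In the wild-type ESC list its gained sites stood above its lost sites, with 84.8% and 79.5%, a difference of 5.29 points (3.71 to 6.86).

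Lost sites lay at gene starts more often than gained sites did. On the chromosomes with promoter entries, which leave out chromosome 18, 81 of 5417 gained sites (1.50%) and 238 of 4343 lost sites (5.48%) had their centre within 200 bp of a RefSeq gene start, a difference of −3.98 points (−4.76 to −3.25). For shared sites the share was 2.74%. Within 1 kb the shares were 5.19% of gained, 12.2% of lost and 6.70% of shared sites. The classes drew together with distance, and within 20 kb the shares were 50.3% of gained and 51.4% of lost sites. Within 100000 bp they were 86.1% of gained, 85.8% of lost and 87.2% of shared sites. Among the sites that changed with both shRNAs, 1.89% of gained and 6.54% of lost sites were within 200 bp of a start. The Ctcf shRNA comparison by itself gave 2.60% of gained and 3.03% of lost sites, a difference of −0.43 points with an interval from −1.13 to 0.26, which includes 0.

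**Figure D3:**
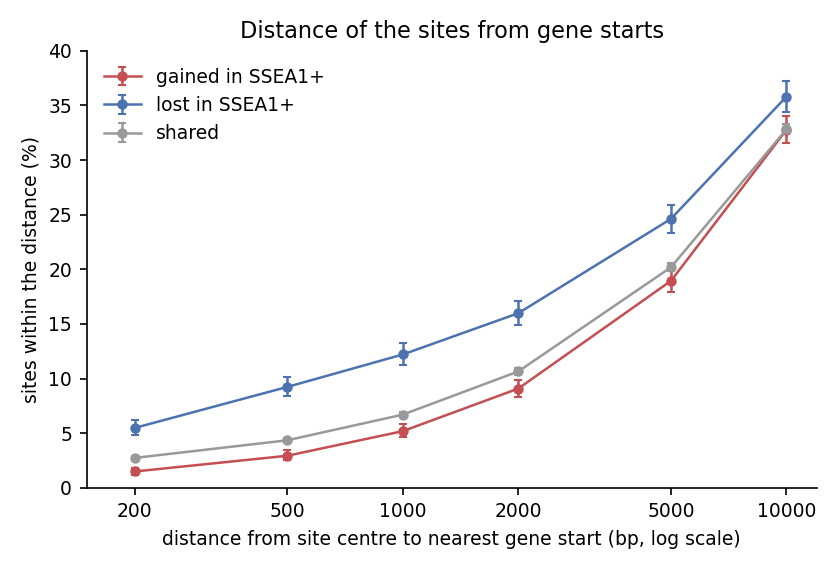
Share of sites (percent, points with 95% Wilson intervals) whose centre lay within a given distance of the nearest RefSeq gene start (bp, log scale). The line of lost sites runs above those of gained and shared sites from 200 to 10000 bp. At 200 bp the shares are 1.50% of gained, 5.48% of lost and 2.74% of shared sites.

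Most lost sites at gene starts were also Thy1+ sites. Of these 238 sites, the Thy1+ control list held 89.5%, the day 12 control list 53.8% and the wild-type ESC list 81.5%. Of the 81 gained sites at gene starts, the shares were 69.1%, 63.0% and 95.1%, and of the 1229 shared ones 97.8%, 92.8% and 97.2%. The Thy1+ list with Ctcf shRNA held 46.9% of the gained and 65.1% of the lost sites at gene starts. Of the 4 sorted populations with control shRNA, the Thy1+ list as a whole also had the highest share of peaks within 200 bp of a gene start, 4.98% (3.92% with Ctcf shRNA), against 2.60% of the SSEA1+ control list and 2.98% of the SSEA1- Thy1- control list. The part of that difference in the results for lost sites was not tested.

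The same core of the motif, searched on both strands in 300 bases around the start (250 before and 50 after), was less frequent at lost than at shared gene-start sites of control cells. It occurred in 10 of 93 promoter windows at gained sites (10.8%), in 13 of 289 at lost sites (4.50%) and in 230 of 1378 at shared sites (16.7%). Of all 32851 promoter windows in the table, 797 (2.43%) held it. Lost windows differed from shared windows by −12.2 points (−15.0 to −8.62). Gained windows differed from lost windows by 6.25 points, with a wide interval from 0.56 to 14.4. The Ctcf shRNA comparison had the opposite order, with the core in 5 of 128 windows at its gained sites (3.91%) and in 15 of 144 at its lost sites (10.4%). Of the windows at sites that changed the same way with both shRNAs, 1 of 18 at gained sites (5.56%) and 2 of 42 at lost sites (4.76%) held it. A window without these letters can still hold another form of the motif, and windows of 1 gene can overlap.

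Gene bodies held 53.6% of gained, 57.1% of lost and 50.3% of shared sites, counted in the spans of protein-coding genes. In the Ctcf shRNA comparison the shares were 54.5% of gained and 54.4% of lost sites. Lost sites were also closer to a shared site, with 26.0% of them within 5 kb of one, against 19.6% of gained sites and 20.5% of shared sites.

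The genes of the pluripotency network had 13 gained sites and 2 lost sites in control SSEA1+ cells. Of 85 SSEA1+ peaks within 10 kb of its 35 genes, 13 were gained (15.3%, interval 9.16 to 24.4), beside 10.7% of all SSEA1+ peaks. Of 74 SSEA1- Thy1- peaks, 2 were lost (2.70%, 0.74 to 9.33), beside 8.84% of all, and both intervals include the shares of all peaks. Of its genes, 10 had only gained sites, 1 had only lost sites, 20 had peaks and no change, and 4 had no peak. The background was counted over 16458 protein-coding genes, of which 18.3% had gained sites only and 15.5% lost sites only.

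Dppa4, a chromatin protein of pluripotent and germ cells, had no peak in SSEA1- Thy1- cells and 1 in SSEA1+ cells, at chr16:48279147-48279546 and 4388 bp outside the gene. That site was also in the day 12 control, wild-type ESC, Smarca5 knockout ESC and SMARCA5 lists, and in no day 0, Thy1+, day 10 or Ctcf shRNA list. Such a change from no peak to at least 1 was seen in 2.4% of the 16458 protein-coding genes counted. Esrrb, a nuclear receptor of the naive network, gained an intragenic site at chr12:86484333-86484732 with the same presence in every list. Dnmt3l, the cofactor of the de novo DNA methyltransferases, gained 2 sites, at chr10:78061112-78061511 within the gene and at chr10:78067272-78067671, for 4 peaks in SSEA1+ cells and 2 in SSEA1- Thy1- cells. Both Dnmt3l sites were in the day 12 control and wild-type ESC lists and in neither Thy1+ list.

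Jarid2, a subunit of Polycomb repressive complex 2, gained 3 intragenic sites, with 11 peaks in SSEA1+ cells and 8 in SSEA1- Thy1- cells. These 3 sites had no common history, since the day 12 control list held none of them and the wild-type ESC list held 1. Pou5f1, which encodes Oct4, was the gene with lost sites only. Its 2 lost sites, at chr17:35498808-35499207 and chr17:35499681-35500080, lay 7024 and 6151 bp outside the gene, which had 2 peaks left in SSEA1+ cells, against 4 in SSEA1- Thy1- cells. Neither of these 2 sites was in the day 12 control list or in an ESC list, and both were in the Thy1+ list with Ctcf shRNA.

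Of the 13 gained sites of the network, 9 were in the day 12 control list, 11 in the wild-type ESC list, 1 in the Thy1+ control list and 2 in the Thy1+ list with Ctcf shRNA. For all gained sites the shares in these lists were 49.1%, 81.6%, 35.5% and 23.0%. None of the 13 was gained again with Ctcf shRNA, where 2 were in the SSEA1+ list and 3 in the SSEA1- Thy1- list. Of all gained sites, only 14.7% were gained again. The network as a whole had 13 other gained peaks of 72 in SSEA1+ cells with Ctcf shRNA, and 8 lost of 67 in SSEA1- Thy1- cells with Ctcf shRNA.

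**Figure D4:**
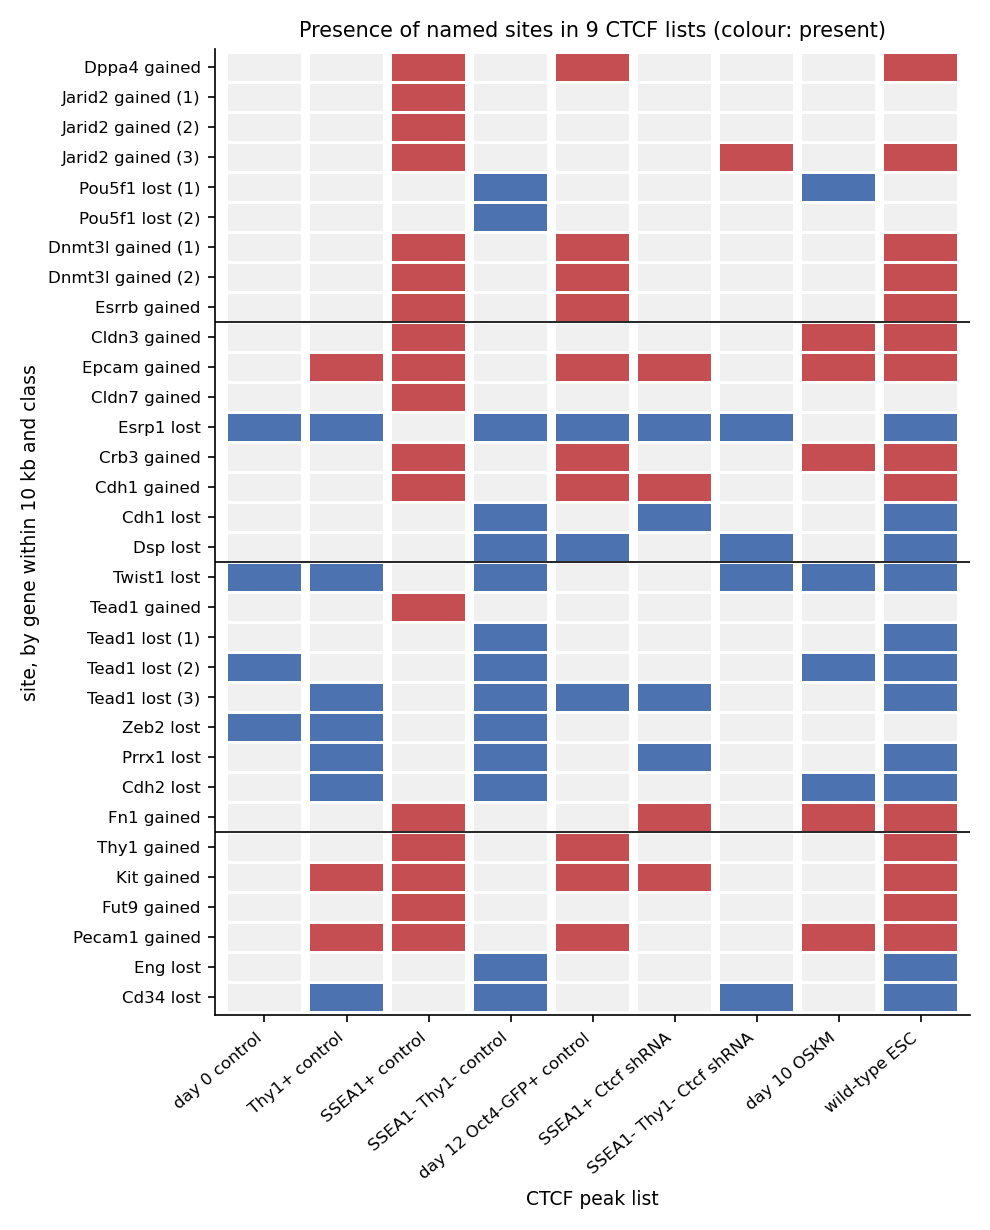
Presence (colour) or absence (grey) of the named sites of 4 gene lists, each row a site with the gene within 10 kb and its class (red gained, blue lost), each column one of 9 CTCF lists; black lines part the gene lists. The gained sites of Dppa4, Dnmt3l and Esrrb are present in the SSEA1+ control, day 12 and wild-type ESC columns and absent from the day 0, Thy1+ and SSEA1- Thy1- control columns, and the lost site of Twist1 is absent from the SSEA1+ and day 12 control columns and present in the day 0, Thy1+ and SSEA1- Thy1- control columns.

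Fibroblast and mesenchymal genes had more lost than gained sites. Of their 72 SSEA1+ peaks, 4 were gained (5.56%, 2.18 to 13.4), and of their 80 SSEA1- Thy1- peaks, 12 were lost (15.0%, 8.79 to 24.4), with intervals that include the shares of all peaks, 10.7% and 8.84%. Of the 30 genes, 2 had only gained and 8 only lost sites, beside 18.3% and 15.5% of the 16458 protein-coding genes counted. Twist1, a transcription factor of the epithelial-mesenchymal transition, had 0 peaks in SSEA1+ cells and 1 in SSEA1- Thy1- cells, at chr12:33952818-33953217 and 4653 bp outside the gene. A change to no peak was seen in 2.2% of the 16458 protein-coding genes counted. The Twist1 site was lost with Ctcf shRNA as well, and it was in the day 0 control list (not in that with Ctcf shRNA), both Thy1+ and all day 10 lists, absent from both day 12 lists, and present in the ESC CTCF lists.

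Zeb2, a repressor of Cdh1, lost an intragenic site at chr2:45044708-45045107, which was in the day 0 control and both Thy1+ lists and in no day 10, day 12 or ESC list. Cdh2, which encodes N-cadherin, lost a site at chr18:16809393-16809792, 347 bp outside the gene, that both Thy1+ lists held and neither day 12 list. This Cdh2 site was also in all day 10 and all ESC lists. Prrx1, a homeobox factor of limb mesenchyme, lost an intragenic site at chr1:163287631-163288030. This Prrx1 site was in the SSEA1+ list with Ctcf shRNA, so its state differed between the shRNAs. Tead1, a DNA-binding partner of YAP, lost 3 sites and gained 1, with 7 peaks in SSEA1+ cells and 9 in SSEA1- Thy1- cells. Fn1, the fibronectin gene, had a gained intragenic site instead, at chr1:71587405-71587804, gained with both shRNAs and absent from the day 12 lists.

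Of the 12 lost fibroblast sites, 8 were in the Thy1+ control list, 7 in the Thy1+ list with Ctcf shRNA, 3 in the day 0 control list, 1 in the day 12 control list and 10 in the wild-type ESC list. For all lost sites the shares in these lists were 53.3%, 36.1%, 8.96%, 41.0% and 81.2%. With Ctcf shRNA the list had 9 gained of 63 peaks in SSEA1+ cells and 9 lost of 63 peaks in SSEA1- Thy1- cells. The share gained minus the share lost was −9.44 points in the control lists and 0 points in the Ctcf shRNA lists. The interval of the control difference included 0, and so also the value with Ctcf shRNA. With 1 list per group, the difference between the shRNAs was not tested.

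Epithelial genes had 9 gained of 64 SSEA1+ peaks (14.1%, 7.58 to 24.6) and 5 lost of 60 SSEA1- Thy1- peaks (8.33%, 3.61 to 18.1), with intervals that include the shares of all peaks. Epcam, an epithelial adhesion molecule that also marks pluripotent cells, gained an intragenic site at chr17:87639299-87639698. Besides both SSEA1+ lists, the Epcam site was in the Thy1+ control, day 12 control, all day 10 and all ESC lists. Cdh1, which encodes E-cadherin, gained an intragenic site at chr8:106618419-106618818 with both shRNAs, and this one was in no day 0, Thy1+ or day 10 list and in the day 12 control list. Cdh1 also lost a site, at chr8:106657782-106658181, that was gained with Ctcf shRNA.

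Cldn3, a claudin of tight junctions, had 1 peak in SSEA1+ cells, at chr5:134986765-134987164 within the gene, and 0 in SSEA1- Thy1- cells. The Cldn3 site was in the day 10 and ESC lists and in neither day 12 list. Crb3, a polarity protein, gained a site at chr17:57053247-57053646 that both day 12 lists held, and Cldn7 gained one at chr11:69955909-69956308 that no other list held. Dsp, the desmosome protein desmoplakin, lost a site with both shRNAs at chr13:38206407-38206806. Esrp1, an epithelial splicing regulator, lost a site at chr4:11329959-11330358 that 11 lists held. Krt8 had 1 gained and 1 lost site, the lost one covering its start at chr15:102004265-102004664.

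The surface markers used to sort or stage reprogramming had 8 gained of 35 SSEA1+ peaks (22.9%, 12.1 to 39.0) and 4 lost of 31 SSEA1- Thy1- peaks (12.9%, 5.13 to 28.9). Over all peaks the shares were 10.7% and 8.84%. The share gained of the surface markers was 14.1% with sites counted up to 50 kb from the genes. With Ctcf shRNA, 4 of their 27 SSEA1+ peaks were gained and 4 of their 27 SSEA1- Thy1- peaks lost. The Thy1 gene itself had 1 peak in SSEA1+ cells and 0 in SSEA1- Thy1- cells, at chr9:44051055-44051454, 2676 bp outside the gene. This site was in both day 12 lists, all ESC lists and the Thy1+ list with Ctcf shRNA. The Thy1+ control list and the SSEA1+ list with Ctcf shRNA lacked it. Fut9, the fucosyltransferase that makes the SSEA1 epitope in the mouse, gained an intragenic site at chr4:25736464-25736863 that the ESC CTCF lists held and the day 12 control list did not. Kit, a receptor tyrosine kinase, had 1 peak in SSEA1+ cells and 0 in SSEA1- Thy1- cells with either shRNA, at chr5:75575588-75575987. Pecam1, an adhesion molecule of endothelial and pluripotent cells, gained a site at chr11:106679826-106680225. Eng, a TGF-beta co-receptor, lost a site at chr2:32672116-32672515 in control cells, and Cd34, a sialomucin of progenitor cells, lost one at chr1:194950926-194951325 with both shRNAs. All 8 gained and all 4 lost sites of these genes were in the wild-type ESC list, beside 81.6% of all gained and 81.2% of all lost sites.

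**Figure D5:**
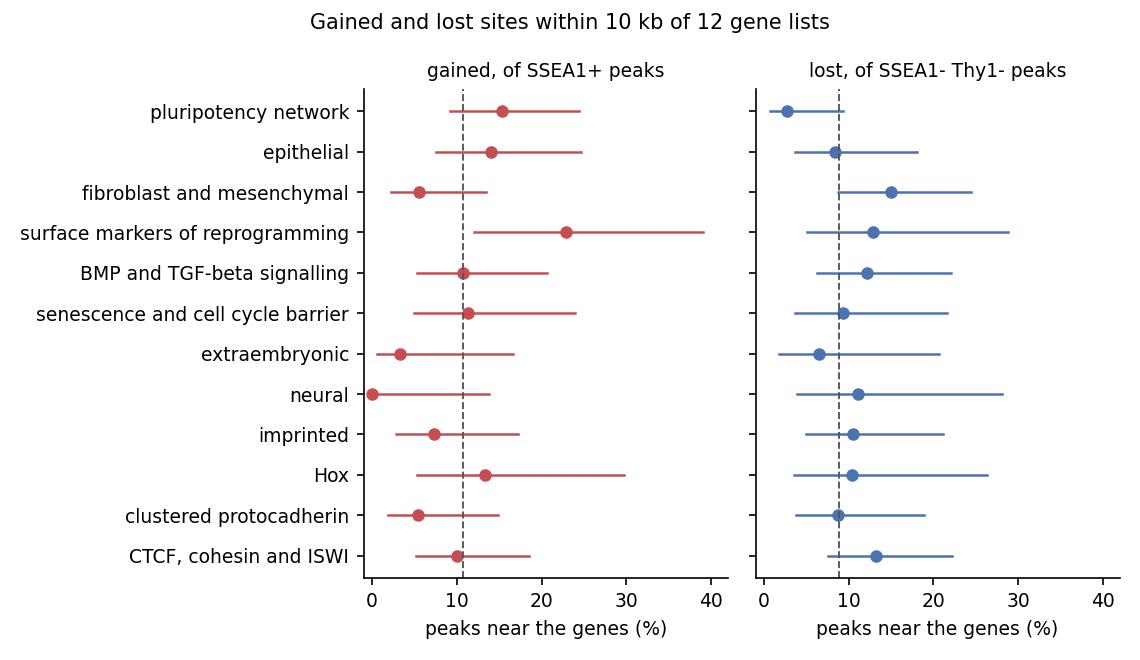
Share of peaks within 10 kb of the genes of 12 lists (percent, points with 95% Wilson intervals) that were gained, of SSEA1+ peaks, on the left, and lost, of SSEA1- Thy1- peaks, on the right; dashed lines mark the share of all peaks (10.7% and 8.84%). The interval of the surface markers lies above the line on the left and the other 11 include it, while on the right the intervals of all 12 lists include the line, that of the pluripotency network (lowest, 2.70%) too.

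BMP and TGF-beta genes had 7 gained of 65 SSEA1+ peaks (10.8%) and 8 lost of 66 SSEA1- Thy1- peaks (12.1%). The shares over all peaks were 10.7% and 8.84%. Acvr1, a type I receptor of that pathway, lost 3 sites and had 5 peaks in SSEA1+ cells, against 8 in SSEA1- Thy1- cells, and Bmpr1a, another type I receptor, lost 1. Smad6, an inhibitor of BMP signalling, gained 2 sites, and Bmp7, a ligand, gained 1. None of the sites of this pathway changed the same way with both shRNAs. Over the genome, only 14.7% of gained and 13.3% of lost sites did, so few were to be found in a list of this size.

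Genes of the senescence and cell cycle barrier had 5 gained of 44 SSEA1+ peaks (11.4%), beside 10.7% over all peaks. They had 4 lost of 43 SSEA1- Thy1- peaks (9.30%), beside 8.84%. Cdkn2a lost the site that covers its start, at chr4:89294543-89294942, where the promoter window held no motif match. That site was in both Thy1+ lists, the day 12 control list, all day 10 and all ESC lists, and in neither list of these populations with Ctcf shRNA. Mdm2, the ubiquitin ligase of p53, lost an intragenic site at chr10:117692162-117692561 that the SSEA1+ list with Ctcf shRNA held. Trp53, which encodes p53, gained 2 sites and Rb1, the retinoblastoma gene, gained 2, of which the one at chr14:73274437-73274836 was gained with both shRNAs.

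Imprinted genes had 4 gained of 55 SSEA1+ peaks (7.27%) and 6 lost of 57 SSEA1- Thy1- peaks (10.5%). Over all peaks the shares were 10.7% and 8.84%. H19, a non-coding RNA whose imprinting control region is a known CTCF-dependent insulator, gained a site at chr7:142581729-142582128, 3783 bp outside the gene, which 10 lists held. Meg3, a maternally expressed non-coding RNA, and Zdbf2, an imprinted zinc finger gene, lost 2 sites each. Kcnq1, a potassium channel gene, lost 1 intragenic site, at chr7:143376744-143377143.

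Hox genes, which set position along the body axis, had 4 gained of 30 SSEA1+ peaks (13.3%) and 3 lost of 29 SSEA1- Thy1- peaks (10.3%). The same shares over all peaks were 10.7% and 8.84%. The site at chr6:52210622-52211021, within 10 kb of Hoxa3, Hoxa5, Hoxa6 and Hoxa7, was gained with both shRNAs. It was found in the 2 SSEA1+ lists and the 2 day 12 lists and in none of the other 12 lists, ESCs included. Hoxc13 had 1 peak in SSEA1+ cells, at chr15:102932392-102932791, and 0 in SSEA1- Thy1- cells. The clustered protocadherins are cell adhesion genes in which CTCF takes part in the choice of promoter. They had 3 gained of 55 SSEA1+ peaks (5.45%) and 5 lost of 57 SSEA1- Thy1- peaks (8.77%). The sites at chr18:36960538-36960937, inside the spans of Pcdha1 to Pcdha5 and near Pcdha6, and at chr18:37506269-37506668, near Pcdhb19, Pcdhb20 and Pcdhb21, were lost with both shRNAs. Both were in the Thy1+ control, day 12 control, all day 10 and all ESC lists, and absent from the day 0 lists and the day 12 list with Ctcf shRNA. Near Pcdhb19 a further lost site, at chr18:37491444-37491843, was gained with Ctcf shRNA, and the site at chr18:37513383-37513782, near Pcdhb20 and Pcdhb21, was gained in control cells and present in both lists with Ctcf shRNA.

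Genes of CTCF itself, of cohesin and of ISWI remodellers had 8 gained of 80 SSEA1+ peaks (10.0%), beside 10.7% over all peaks. They had 11 lost of 83 SSEA1- Thy1- peaks (13.3%), beside 8.84%. Ctcf lost an intragenic site at chr8:105648045-105648444 that was otherwise found only in the 2 ESC CTCF lists. Smc1a, a core cohesin subunit on chromosome X, had 0 peaks in SSEA1+ cells and 2 in SSEA1- Thy1- cells. Stag2, another cohesin subunit, lost a site with both shRNAs at chrX:42162699-42163098, while Smc1b, the meiotic subunit, and Pds5b, a cohesin regulator, lost 1 each in control cells. Esco2, a cohesin acetyltransferase, had 1 peak in SSEA1+ cells and 0 in SSEA1- Thy1- cells, at chr14:65830094-65830493. Baz1a and Rsf1, partners of SMARCA5 in remodelling complexes, each gained a site with both shRNAs, at chr12:54992260-54992659 and chr7:97602251-97602650. Baz1a also lost 1 site and Rsf1 lost 2 in control cells.

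Neural genes had 0 gained of 24 SSEA1+ peaks, which allows a share of up to 12.5% for counting error. They had 3 lost of 27 SSEA1- Thy1- peaks (11.1%). Over all peaks, 10.7% were gained and 8.84% lost. The lost sites were at Map2, a neuronal microtubule protein left with 0 peaks in SSEA1+ cells, against 1 in SSEA1- Thy1- cells, and near Pax6 and Olig2, factors of neural progenitors. Extraembryonic genes had 1 gained of 30 SSEA1+ peaks (3.33%), near Cdx2, a factor of the trophectoderm, and 2 lost of 31 SSEA1- Thy1- peaks (6.45%). These 2 were at Elf5, a trophoblast factor, and at Sox17, a factor of endoderm, which had 0 peaks in SSEA1+ cells and 1 in SSEA1- Thy1- cells.

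Over all protein-coding genes, Rere, which encodes a transcriptional corepressor and spans 340 kb of chromosome 4, had the most gained sites. It had 9 gained and 2 lost sites within 10 kb, for 21 peaks in SSEA1+ cells and 14 in SSEA1- Thy1- cells. Of the 9 gained sites of Rere, 7 were in the wild-type ESC list, 4 in the day 12 control list, 2 in the Thy1+ control list, 0 in the Thy1+ list with Ctcf shRNA and 0 in the day 0 control list. With Ctcf shRNA the gene had 15 peaks in SSEA1+ cells and 16 in SSEA1- Thy1- cells. Among the other genes named here, Mtus2, Glg1, Sfi1, Myo10 and Cpeb3 had 5 gained sites each, and Smyd3, Csmd2 and Dpp6 had 4. Dpp6, a subunit of potassium channels, had each of its 4 sites in the day 12 control list and none in a Thy1+ list.

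Agap1, a regulator of Arf GTPases, had the most lost sites, 6, for 17 peaks in SSEA1+ cells and 22 in SSEA1- Thy1- cells. Of these, 5 were in the Thy1+ control list, 3 in the Thy1+ list with Ctcf shRNA and 3 in the day 12 control list. Slc23a2, a vitamin C transporter, lost 5 sites, with 5 peaks in SSEA1+ cells and 8 in SSEA1- Thy1- cells, and 1 of the 5 was in the Thy1+ control list. Gm37013 and Gm38666, annotated across the protocadherin cluster, shared 5 lost sites and had 3 gained sites each. Pard3b, Nasp, Akr1a1, Rora, Ppm1h and Septin9 lost 4 each. Of these, Rora also gained 4 sites and had 25 peaks in both populations. Nasp gained 3, with 3 peaks in SSEA1+ cells and 4 in SSEA1- Thy1- cells, and Pard3b and Septin9 gained 1 each. Akr1a1, an aldehyde reductase gene of only 15.2 kb, had 2 peaks in SSEA1+ cells and 6 in SSEA1- Thy1- cells, while with Ctcf shRNA it had 5 in each population. Its 4 lost sites were all in the day 12 control list, so the SSEA1+ control list lacked sites that both the SSEA1- Thy1- and the day 12 control lists held.

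Along the genome the changed sites were spread widely, with a median of 2 gained and 1 lost site per 1-Mb window over 2534 windows with peaks. The window of chromosome 4 from 150 to 151 Mb, with Rere, Errfi1, Park7 and Per3, had the most gained sites, 15, with 4 lost, for 72 peaks in SSEA1+ cells and 61 in SSEA1- Thy1- cells. The window of chromosome 5 from 147 to 148 Mb, with Pdx1, Cdx2, Flt3, Flt1 and Mtus2, had 14 gained and 3 lost sites, for 68 peaks in SSEA1+ cells and 57 in SSEA1- Thy1- cells. On chromosome 1 from 180 to 181 Mb, a window with the Nodal inhibitors Lefty1 and Lefty2, there were 11 gained and 3 lost sites. Among the windows with the most lost sites, chromosome 11 from 59 to 60 Mb, with Wnt3a and Wnt9a, had 3 gained and 11 lost. Chromosome 4 from 116 to 117 Mb, with Nasp and Akr1a1, stood among the first in both directions with 11 gained and 13 lost sites, for 57 peaks in SSEA1+ cells and 59 in SSEA1- Thy1- cells.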

How the data were processed

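CTCF ChIP-seq peaks were analysed in SSEA1+ and SSEA1- Thy1- control cells, with the other 14 lists for reference. Per the submitters' processing notes, the authors used Bowtie2, MACS2 and HOMER, with deepTools, bedtools, Picard, SAMtools, Trim Galore and FastQC, on mm10 (GRCm38). The sources used here do not give versions, thresholds or pooling. The deposited score of each peak is 0 in every line, so peaks could not be ranked or filtered, and the sequencing depth behind a list is unknown. Every peak is 400 bp wide, so an overlap of 1 bp can accept displaced peaks and hides partial changes. Between the control lists of the 2 populations few peaks were displaced, since 46385 of 46398 shared SSEA1+ peaks had the same coordinates. Displacement was common against the wild-type ESC list, where 12.7% of the gained sites found had the same start.

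Peaks were compared with Python 3.11.15 and NumPy 2.4.6, and figures drawn with matplotlib 3.10.9. The overlap step was tested on simulated lists of 50890 peaks and recovered 5777 of 5777 gained and 4755 of 4755 lost sites. Shares carry 95% Wilson intervals and differences of shares Newcombe intervals. No p-value was computed, because each population is 1 list. Genes came from RefSeq (GRCm38.p6), where all 321 symbols of the 12 gene lists matched, 1 by a synonym, and sites within 10 kb of a gene span were counted. Strand is known only for the promoter table, which has no chromosome 18 entries.

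The members and gene lists were chosen with earlier results of these data known. Genes were named by rule, and 2 genes that it names are not reported here. In each list these were up to 4 with peaks in the SSEA1+ list and none in the SSEA1- Thy1- list, up to 4 of the reverse, up to 4 others with the largest difference between gained and lost sites, and those with a site that changed the same way with both shRNAs. Over all genes these were the 10 with the most gained and the 10 with the most lost sites, and 5 windows of 1 Mb in each direction. The genes picked out within those windows, and single sites compared across lists, were chosen after their values were seen.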

Additional observations from a re-analysis of the deposited data

Results flagged for a closer look

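Some sites changed in opposite directions with the control and the Ctcf shRNA. A set of 655 sites was gained in SSEA1+ cells with the control shRNA and lost with Ctcf shRNA, among them sites of Jarid2 (chr13:44865546-44865945) and Trp53 (chr11:69599426-69599825) that the wild-type ESC list held. Another 462 sites were lost with the control shRNA and gained with Ctcf shRNA, among them sites of Cdh1, Prrx1, Mdm2 and Sox17. Each shRNA has 1 list per population, so the difference was not tested.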

How the results depend on the processing

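The alternatives gave 129 values for 48 results, of which 114 stayed within 1.5 times the main count or within its 95% interval, 14 moved beyond and 1 reversed. A change of sign counted as reversed only where the main interval excluded 0. Several differences of gene lists changed sign inside a wide main interval and were counted as staying. Among them were Hox genes (2.99 points, and −6.19 with gene spans alone) and neural genes (−11.1 points, and 4.33 in the Ctcf shRNA lists). The wild-type ESC difference changed from 0.44 to −7.57 points for sites with the opposite state and was counted as moved. Under a reciprocal overlap of 50%, a distance of 1 kb or identical coordinates, gained sites numbered 5274 to 5593 and lost sites 4189 to 4505 in control cells, and on autosomes 5441 and 4400. Of the 46398 shared SSEA1+ peaks of control cells, 46385 had the same coordinates. A reciprocal overlap of 50% or identical coordinates could therefore hardly change these counts, which are among the 114 values that stayed. Sites with the same state in the Ctcf shRNA lists numbered 821 gained and 599 lost; for these, the difference between gained and lost sites was −26.7 points in the Thy1+ control list and 15.5 points in the day 12 control list. For sites with the opposite state it was −6.53 points in the Thy1+ list and reversed to −8.08 points in the day 12 list. In the Ctcf shRNA comparison the difference at gene starts was −0.43 points. Within gene spans alone the share of lost sites in the pluripotency network was 0%. The causes were not tested. Identical coordinates, the opposite state, absence from both Ctcf shRNA lists, the same state at gene starts and the Ctcf shRNA lists as alternatives were added after seeing the data. A stricter peak threshold and leaving out a replicate could not be run, since every score is 0 and each list pools its samples. No paired analysis was possible because the replicate numbers name days within 1 list per population.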
